A study of Arabidopsis thaliana with 4 samples.

Results

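The phi and tau classes of glutathione transferases are the large plant-specific classes of this enzyme superfamily, and this account covers 41 loci of Arabidopsis thaliana, 13 of the phi class (GSTF2 to GSTF14) and 28 of the tau class (GSTU1 to GSTU28). The members were taken by locus identifier from the 33602 loci of the count files. The family was selected on results of these same libraries, the ratios between them, so its counts and ratios are a description of these libraries and test nothing. Glutathione transferases join the tripeptide glutathione to reactive or electrophilic compounds, which include herbicides, products of oxidative stress and intermediates of the plant's own metabolism. The conjugates are moved into the vacuole by transporters of the ABCC type or are processed further. Some members carry ligands without reacting with them, and others supply the sulfur of glucosinolates or of the indole phytoalexin camalexin.

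RNA was sequenced from root tips collected 4 days after germination, with 1 library in each of 4 groups. The groups were med16-2 on low phosphate (5 µM), med16-2 on high phosphate (1 mM), the Col-0 accession on low phosphate (5 µM) and Col-0 on high phosphate (1 mM), all on agar medium with 0.5% sucrose. The line med16-2 carries a mutation in MED16, a subunit of Mediator, the complex that links transcription factors to RNA polymerase II, and it is the single mutant allele sampled. The design asks how the phosphate response of the root tip differs when MED16 is impaired. Since each group is a single library, no difference could be set against a spread between replicates, and p-values are absent throughout.

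Gene counts totalled 12302510 in med16-2 low phosphate, 14266585 in med16-2 high phosphate, 15696333 in Col-0 low phosphate and 10079345 in Col-0 high phosphate. MED16 itself had 48 and 56 counts in the low and high phosphate libraries of med16-2, against 747 and 420 counts in those of Col-0. The library of med16-2 low phosphate stands apart, with 36.6% of its listed reads aligned to several places, against 6.65% to 9.27% in the other libraries, and such reads enter no gene count. The root cap genes SMB, BRN1 and BRN2 were detected in every library at 23.2 to 48.4 CPM (counts per 1000000 gene counts, scaled with trimmed means of M values). The stem cell gene WOX5 had 0.571 CPM in med16-2 low phosphate and 0.347 CPM in med16-2 high phosphate, against 3.51 CPM in Col-0 low phosphate and 0.508 CPM in Col-0 high phosphate. The root hair gene RSL4 had 39.6 CPM in med16-2 high phosphate against 80.5 CPM in Col-0 high phosphate. No other root marker checked met the size rule given below. The part of these cell types in the family's values was not tested. The 4 photosynthetic shoot markers summed to 12.2 CPM in med16-2 low phosphate and 6.32 CPM in med16-2 high phosphate, against 123 CPM in Col-0 low phosphate and 148 CPM in Col-0 high phosphate.

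A member was called higher or lower when its ratio between 2 libraries was at least 2-fold and the exact 95% interval of the ratio, which covers counting error only, excluded equality. Of the 41 members, 36 had a mean of at least 1 CPM over the 4 libraries and were compared, 10 of the phi class and 26 of the tau class. The 5 others were GSTF3, GSTF5, GSTF14, GSTU15 and GSTU21. Among these, GSTF14 had 4 counts in med16-2 low phosphate and 21 in med16-2 high phosphate, against 1 in Col-0 low phosphate and 1 in Col-0 high phosphate. GSTF3 had 0 counts in med16-2 low phosphate and 1 in med16-2 high phosphate, against 8 in Col-0 low phosphate and 1 in Col-0 high phosphate. The remaining 3 had at most 4 counts in any library. Another 6 members (GSTF11, GSTF12, GSTU3, GSTU12, GSTU17 and GSTU18) passed the filter on their mean although they were under 1 CPM in at least 1 library, so the filter itself favoured a difference in them.

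Sequence shows how far the counts of near copies can be told apart. Proteins translated from the TAIR10.1 coding sequences of RefSeq were a median 38.8% identical between phi members, 38.5% between tau members and 20.1% between a phi and a tau member. The closest pairs were GSTF6 with GSTF7 at 93.3% and GSTF2 with GSTF3 at 92.5%, and no other pair passed 81.3%. GSTF6 and GSTF7 differ at 33 bases of their coding sequences, which are 627 and 630 bases long, and their longest identical coding run is 116 bases. Of all 50-base windows of the GSTF6 coding sequence, 17.3% occur unchanged in GSTF7. The stretch of 100 coding bases that separates them best, coding positions 167 to 266 of both, is given here with the 12 differing bases in capitals, because reads over it decide which copy of the pair with the highest ratios they are counted for.
GSTF6: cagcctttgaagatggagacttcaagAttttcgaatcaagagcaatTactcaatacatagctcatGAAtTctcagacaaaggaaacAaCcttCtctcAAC
GSTF7: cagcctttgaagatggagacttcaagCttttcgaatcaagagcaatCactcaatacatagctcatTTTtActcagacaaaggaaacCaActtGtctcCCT
GSTF2 and GSTF3 differ at 35 of 639 coding bases, and 5.93% of the 50-base windows of GSTF2 occur unchanged in GSTF3. Their best separating stretch, coding positions 301 to 400, has 14 differing bases in capitals and is shown because GSTF2 was abundant and GSTF3 nearly absent from the counts.
GSTF2: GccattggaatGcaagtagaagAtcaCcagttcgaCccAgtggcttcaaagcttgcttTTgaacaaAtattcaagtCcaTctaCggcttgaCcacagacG
GSTF3: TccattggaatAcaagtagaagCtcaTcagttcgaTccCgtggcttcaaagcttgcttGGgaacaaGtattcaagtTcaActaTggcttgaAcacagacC
Reads within an identical stretch longer than themselves align to both copies and would be listed as aligned to several places. How many such reads belonged to these genes was not analysed here.

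The family accounted for 0.453% of gene counts in med16-2 low phosphate and 0.516% in med16-2 high phosphate, against 0.558% in Col-0 low phosphate and 0.508% in Col-0 high phosphate. Per kilobase of exon, mean levels spanned 741-fold among the measured members. The 6 highest were GSTF10 at 763 CPM per kilobase, GSTU19 at 738, GSTF9 at 522, GSTF8 at 449, GSTU26 at 337 and GSTU25 at 257. Together these 6 made up 81.6% of the family's CPM in med16-2 low phosphate and 79.9% in med16-2 high phosphate, against 77.8% in Col-0 low phosphate and 78.3% in Col-0 high phosphate. Most of the family's transcript thus came from 6 genes in every library.

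**Figure D1:**
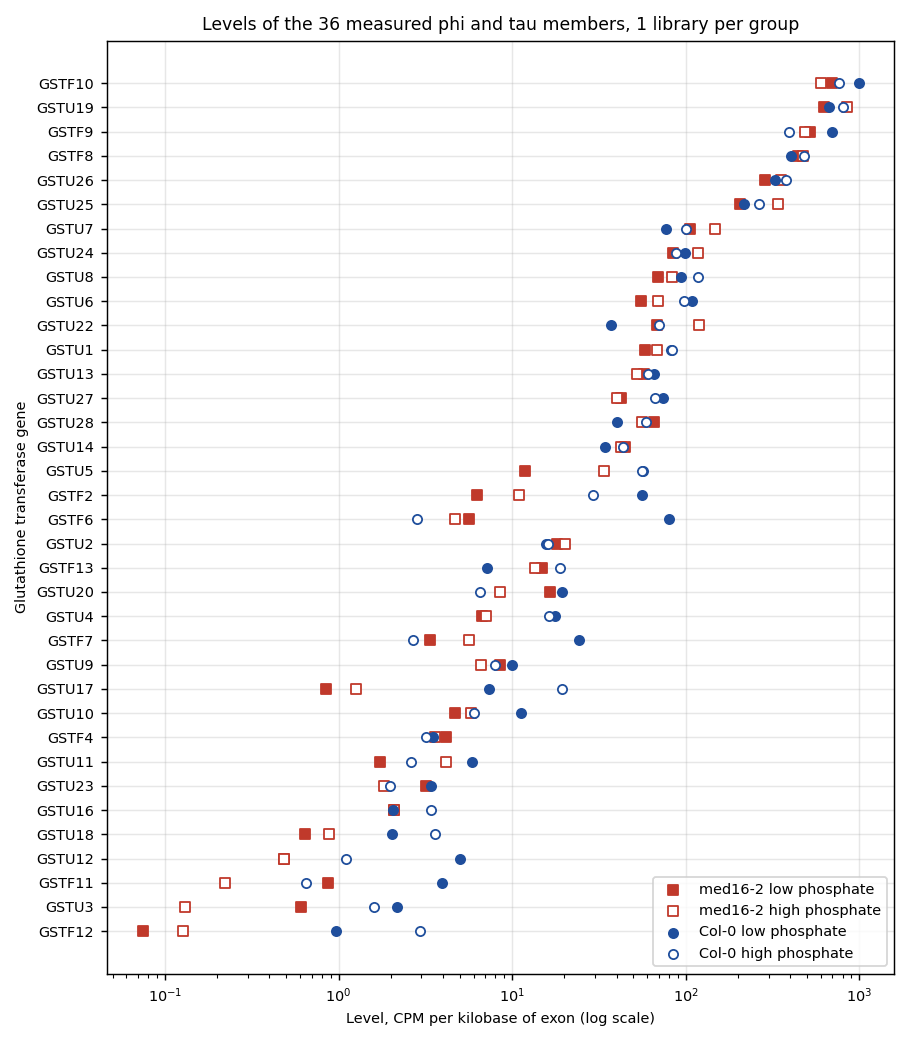
Level of each of the 36 measured members in CPM per kilobase of exon (log axis), with 1 point per library, red squares for med16-2, blue circles for Col-0, filled for low and open for high phosphate. The 6 genes at the top lie close together across libraries, whereas GSTF6, GSTF7, GSTF2, GSTU17, GSTU12 and GSTF12 spread widely.

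None of these 6 abundant members met the size rule in any of the 4 comparisons. GSTU19 (AT1G78380), which conjugates a broad range of herbicide-like substrates and responds to herbicide safeners, had 703 CPM in med16-2 low phosphate and 946 CPM in med16-2 high phosphate, against 752 CPM in Col-0 low phosphate and 905 CPM in Col-0 high phosphate. GSTF8 (AT2G47730), long used as a marker of early stress responses in roots, had 1057 CPM in med16-2 low phosphate and 1136 CPM in med16-2 high phosphate, against 969.6 CPM in Col-0 low phosphate and 1142 CPM in Col-0 high phosphate. In GSTF9 (AT2G30860), the member of this group with the widest difference, the levels were 638 CPM in med16-2 low phosphate and 598 CPM in med16-2 high phosphate, against 853 CPM in Col-0 low phosphate and 487 CPM in Col-0 high phosphate. GSTF9 was therefore highest in Col-0 low phosphate, with a low over high phosphate ratio of 1.75-fold in Col-0 (1.70 to 1.81). GSTU25 (AT1G17180), a tau enzyme that acts on the explosive trinitrotoluene, had 209.6 CPM in med16-2 low phosphate, against 345 CPM in med16-2 high phosphate, which is 1.65-fold lower (1.57 to 1.73). GSTU26 (AT1G17190), which conjugates chloroacetanilide herbicides, and GSTF10 (AT2G30870), known as a dehydration-responsive gene, differed by at most 1.42-fold between any compared libraries. All 21 measured members with no call in any of the 4 comparisons had log2 ratios between -0.98 and 0.87.

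At low phosphate relative to high phosphate, 1 of the 36 measured members was higher and 2 were lower in med16-2, while 6 were higher and 3 were lower in Col-0. Over all 18692 loci compared, 2.26% were higher and 1.03% lower in med16-2, and 3.24% were higher and 1.49% lower in Col-0. The median log2 ratio of the measured members was -0.13 in med16-2, against -0.01 for all loci, and 0.12 in Col-0, against -0.02 for all loci. The median in med16-2 was 0.02 without the members that overlap another locus. Within Col-0 the phi members had a median of 0.60 and the tau members one of -0.01. The phi values ran from -1.59 to 4.80, with GSTF6 and GSTF7, near copies of each other, the highest. That median was not recomputed without near copies. In bulk tissue, fewer cells of a type and less RNA per cell cannot be told apart.

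**Figure D2:**
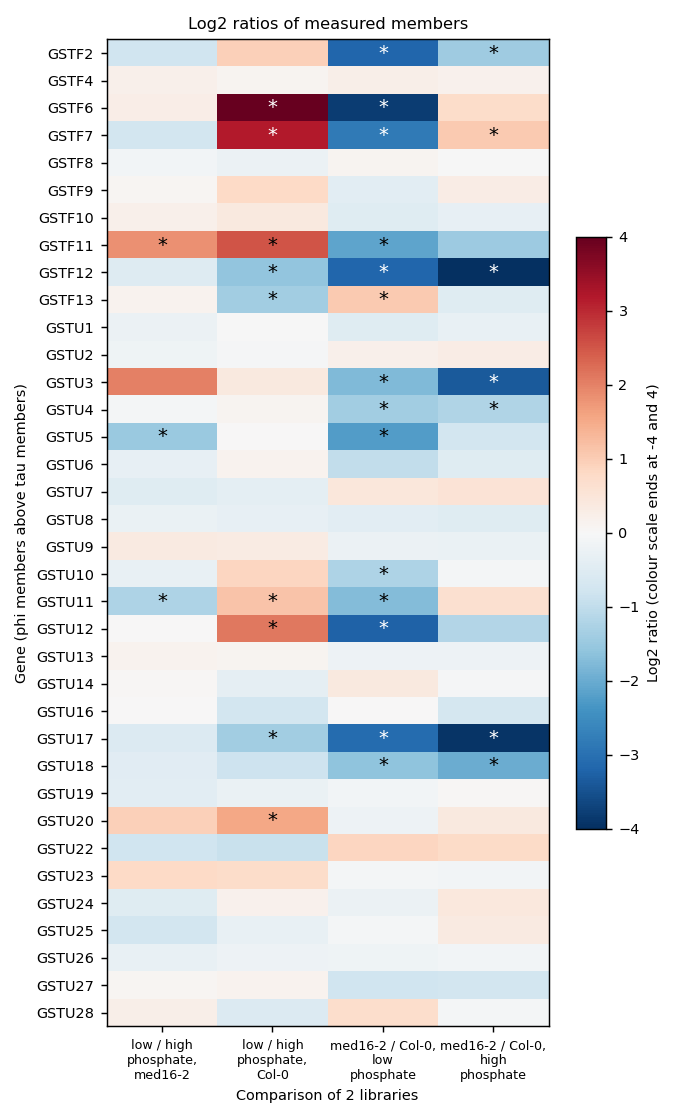
Log2 ratio of each measured member in the 4 comparisons of 2 libraries (red higher, blue lower; the colours saturate at -4 and 4), with an asterisk where the member met the size rule. The rows of GSTF6 and GSTF7 are dark red for phosphate in Col-0 and dark blue for genotype at low phosphate, and most tau rows are pale.

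GSTF6 and GSTF7 had the highest phosphate ratios of the family in Col-0 and no call for phosphate in med16-2. GSTF6 (AT1G02930), which conjugates glutathione to indole-3-acetonitrile in camalexin synthesis, had 82 counts (6.69 CPM) in med16-2 low phosphate and 80 counts (5.56 CPM) in med16-2 high phosphate, against 1510 counts (94.6 CPM) in Col-0 low phosphate and 33 counts (3.35 CPM) in Col-0 high phosphate. Only Col-0 low phosphate was high. Its level in Col-0 was 27.8-fold higher at low than at high phosphate (20 to 41.2), and the ratio in med16-2 was 1.20-fold (0.873 to 1.66).

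GSTF7 (AT1G02920), its defence-related close copy, had 50 counts (4.08 CPM) in med16-2 low phosphate and 98 counts (6.81 CPM) in med16-2 high phosphate, against 469 counts (29.4 CPM) in Col-0 low phosphate and 32 counts (3.25 CPM) in Col-0 high phosphate. The order of the 4 libraries was thus not the same as for GSTF6, since med16-2 high phosphate lay above med16-2 low phosphate. In Col-0 GSTF7 was 8.92-fold higher at low phosphate (6.32 to 13.4), and in med16-2 it was 1.66-fold lower (1.18 to 2.40), short of the size rule.

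**Figure D3:**
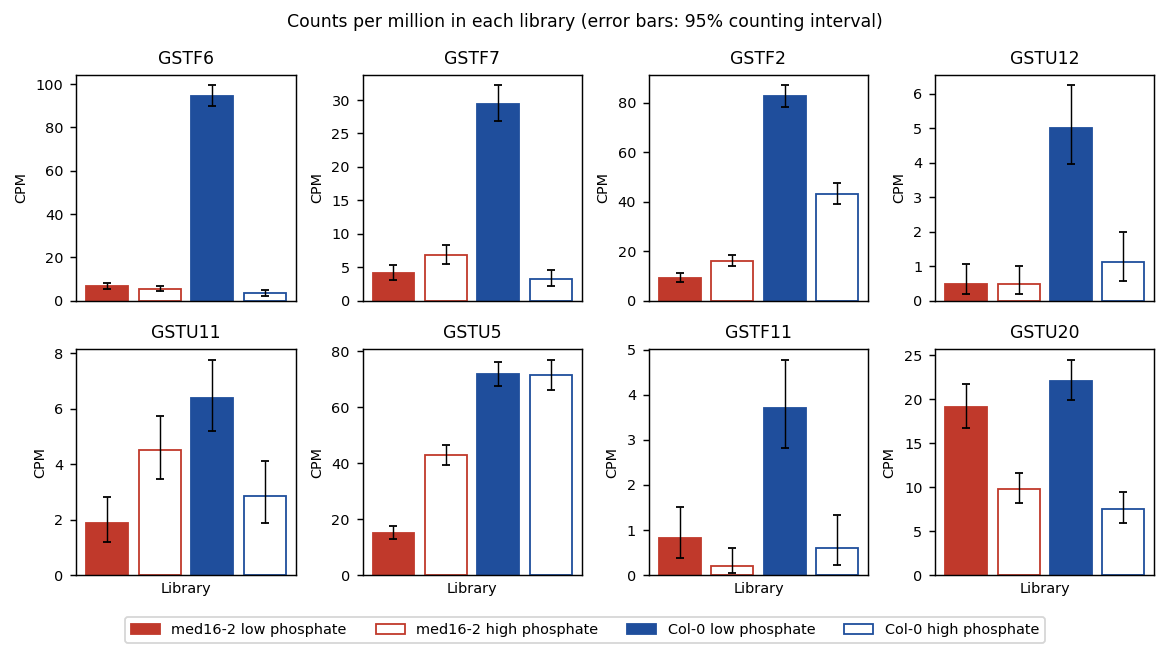
CPM of 8 members in each library (bars) with the exact 95% counting interval (error bars), in red for med16-2 and blue for Col-0, filled for low and open for high phosphate. GSTF6 and GSTF7 are high in Col-0 low phosphate alone at 94.6 and 29.4 CPM, whereas GSTU5 is low in med16-2 low phosphate at 15.2 CPM.

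Another 4 members were higher at low phosphate in Col-0. GSTU12 (AT1G69920) had 6 counts in med16-2 low phosphate and 7 in med16-2 high phosphate, against 80 in Col-0 low phosphate and 11 in Col-0 high phosphate. The high library was again that of Col-0 low phosphate, 4.32-fold above Col-0 high phosphate (2.38 to 9.35). GSTU11 (AT1G69930), its neighbour on chromosome 1, had 23 counts in med16-2 low phosphate and 65 in med16-2 high phosphate, against 102 in Col-0 low phosphate and 28 in Col-0 high phosphate. GSTU11 met the size rule in opposite directions, 2.37-fold lower at low phosphate in med16-2 (1.48 to 4.06) and 2.22-fold higher at low phosphate in Col-0 (1.47 to 3.55). No role is given here for GSTU11 and GSTU12.

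GSTF11 and GSTU20 take part in the synthesis of aliphatic glucosinolates, where glutathione donates sulfur. GSTF11 (AT3G03190) had 10 counts in med16-2 low phosphate and 3 in med16-2 high phosphate, against 59 in Col-0 low phosphate and 6 in Col-0 high phosphate. At low phosphate it was 3.52-fold higher in med16-2 (1.01 to 22.1) and 5.65-fold higher in Col-0 (2.63 to 17.2), and it was the single member called in both. The call in med16-2 rests on 13 counts in all and is lost when libraries are scaled by their total gene counts. GSTU20 (AT1G78370) had 234 counts (19.1 CPM) in med16-2 low phosphate and 141 counts (9.79 CPM) in med16-2 high phosphate, against 353 counts (22.1 CPM) in Col-0 low phosphate and 74 counts (7.51 CPM) in Col-0 high phosphate. Both low phosphate libraries lay above both high phosphate libraries, with ratios of 1.95-fold in med16-2 (1.57 to 2.42) and 2.93-fold in Col-0 (2.29 to 3.84).

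The members lower at low phosphate in Col-0 were GSTF12, GSTF13 and GSTU17. GSTF13 (AT3G62760), a phi member for which no role is given here, had 168 counts (13.7 CPM) in med16-2 low phosphate and 179 counts (12.4 CPM) in med16-2 high phosphate, against 105 counts (6.58 CPM) in Col-0 low phosphate and 171 counts (17.4 CPM) in Col-0 high phosphate. The low library was that of Col-0 low phosphate, 2.63-fold below Col-0 high phosphate (2.06 to 3.40). In med16-2 the members called lower were GSTU11 and GSTU5. GSTU5 (AT2G29450), a tau member for which no role is given here, had 186 counts (15.2 CPM) in med16-2 low phosphate and 617 counts (42.9 CPM) in med16-2 high phosphate, against 1145 counts (71.7 CPM) in Col-0 low phosphate and 704 counts (71.5 CPM) in Col-0 high phosphate. It was 2.82-fold lower at low phosphate in med16-2 (2.39 to 3.35) and equal between the Col-0 libraries, at 1.00-fold (0.913 to 1.10).

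The phosphate log2 ratio in med16-2 minus that in Col-0 was called, at a difference of at least 1 with a 95% counting interval excluding 0, as higher for 1 member and as lower for 7. Over all loci 2.3% were called higher and 2.16% lower. The 7 were GSTF6 at -4.53 (-5.20 to -3.87), GSTF7 at -3.89 (-4.60 to -3.18), GSTU11 at -2.40, GSTU12 at -2.09, GSTF2 at -1.73, GSTU5 at -1.50 and GSTU10 at -1.18. The value for GSTU12 came to -1.61 with a pseudocount of 5 and was then no longer called. GSTF13 had the opposite sign, at 1.54 (1.07 to 2.00). GSTF2 (AT4G02520), which binds camalexin and flavonoids in vitro, had 113 counts (9.21 CPM) in med16-2 low phosphate and 231 counts (16.0 CPM) in med16-2 high phosphate, against 1318 counts (82.6 CPM) in Col-0 low phosphate and 425 counts (43.1 CPM) in Col-0 high phosphate. Both libraries of med16-2 lay below both of Col-0. Its phosphate ratios, 1.74-fold lower in med16-2 (1.38 to 2.20) and 1.91-fold higher in Col-0 (1.71 to 2.14), were each short of the size rule. The plot of phosphate ratios by genotype sets the members side by side on these values.

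**Figure D4:**
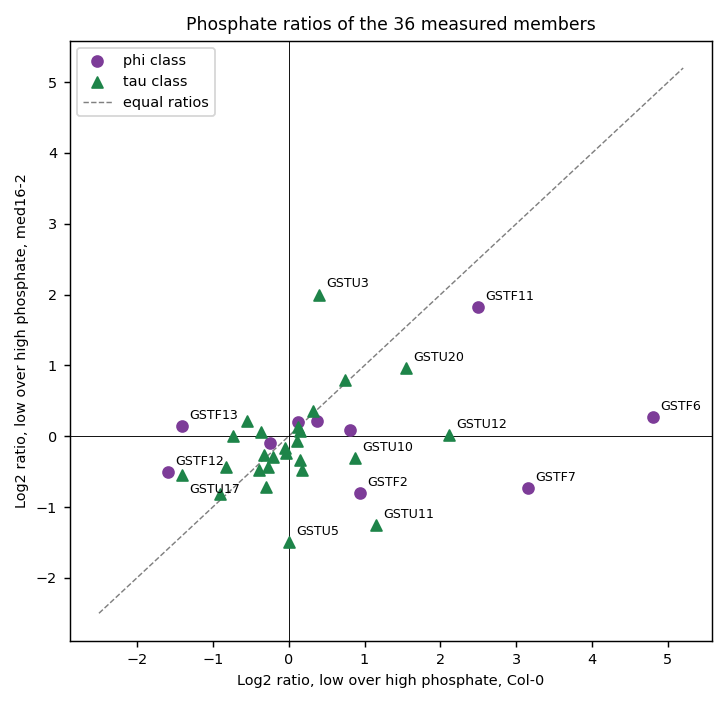
Log2 ratio of low over high phosphate for the 36 measured members, in med16-2 (vertical axis) and in Col-0 (horizontal axis), circles for phi and triangles for tau members, with the dashed line marking equal ratios. GSTF6 and GSTF7 lie far right at 4.80 and 3.16 in Col-0 but near the horizontal line at 0.27 and -0.73 in med16-2, and GSTU20 and GSTF11 lie nearest the dashed line among the members called higher in Col-0.

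In med16-2 relative to Col-0, 1 member was higher and 13 were lower at low phosphate, and 1 was higher and 6 were lower at high phosphate. Over all loci 1.04% were higher and 6.14% lower at low phosphate, and 0.712% were higher and 6.34% lower at high phosphate. The measured members had a median log2 ratio of -0.43 at low phosphate and -0.16 at high phosphate, beside 0.01 and 0.02 for all loci. The median at low phosphate was -0.23 in each of 3 cases, leaving out the members with a mean under 5 CPM, those with a copy at least 90% identical in protein, or those overlapping another locus. At low phosphate the phi members had a median of -1.31 and the tau members one of -0.23. The phi median falls in a gap where no member lies, between GSTF11 at -2.12 and GSTF10 at -0.5. Of the 10 measured phi members, 5 were lower, 1 was higher and 4 were not called. GSTF2, GSTF6 and GSTF7, which have a near copy, were among the 5, and the class medians were not recomputed without them. All 6 members lower at high phosphate (GSTF2, GSTF12, GSTU3, GSTU4, GSTU17 and GSTU18) were among the 13 lower at low phosphate. The 4 shoot markers were lower in med16-2 in both comparisons, and their part in these results was not tested. The comparison at high phosphate, and that of phosphate within Col-0, do not use the library with many reads aligned to several places. The comparisons of phosphate within Col-0 and of genotype at low phosphate share the Col-0 low phosphate library, which the difference of phosphate ratios also uses. A high count in that library alone can therefore give a call in each of them.

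The members called lower in med16-2 at low phosphate and not called lower at high phosphate were GSTF6, GSTF7, GSTF11, GSTU5, GSTU10, GSTU11 and GSTU12. At low phosphate GSTF6 was 14.1-fold lower (11.3 to 17.9), GSTU12 9.52-fold lower (4.51 to 28.7), GSTF7 7.14-fold lower (5.38 to 9.85) and GSTU5 4.72-fold lower (4.05 to 5.55). GSTF11 was 4.35-fold lower (2.3 to 9.94) and GSTU11 3.35-fold lower (2.15 to 5.62). At high phosphate GSTU5 was 1.67-fold lower in med16-2 (1.49 to 1.86), short of the size rule. The ratios of GSTF11, at 2.71-fold lower (0.624 to 18.1), GSTU12, at 2.24-fold lower (0.813 to 6.99), and GSTU10, at 1.05-fold lower (0.759 to 1.45), had intervals that included equality. GSTU11 was 1.57-fold higher there (1.01 to 2.57), also short of the rule. GSTU10 (AT1G74590), for which no role is given here, had 66 counts in med16-2 low phosphate and 96 in med16-2 high phosphate, against 206 in Col-0 low phosphate and 69 in Col-0 high phosphate. GSTU10 was 2.39-fold lower in med16-2 at low phosphate (1.81 to 3.21). Its difference of phosphate ratios also passed, but it is built in part from the same counts and adds no separate support. For GSTF11 the difference of phosphate ratios was -0.68 (-2.78 to 1.42) and did not pass.

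GSTF7 was 2.07-fold higher in med16-2 at high phosphate (1.39 to 3.23), against its lower level at low phosphate, and lost that call with a pseudocount of 5. GSTF6 at high phosphate was 1.64-fold higher in med16-2 (1.09 to 2.57), short of the size rule. The single member higher in med16-2 at low phosphate was GSTF13, 2.08-fold (1.62 to 2.68).

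GSTF2 was 8.93-fold lower in med16-2 at low phosphate (7.39 to 11) and 2.69-fold lower at high phosphate (2.29 to 3.17), with the 2 intervals apart. GSTU4 (AT2G29460) had 97 counts in med16-2 low phosphate and 120 in med16-2 high phosphate, against 333 in Col-0 low phosphate and 190 in Col-0 high phosphate. Its deficit in med16-2 was near equal in both media, 2.63-fold at low phosphate (2.10 to 3.34) and 2.31-fold at high phosphate (1.83 to 2.93). GSTU3 (AT2G29470), next to GSTU4 in the same gene cluster, had 8 counts in med16-2 low phosphate and 2 in med16-2 high phosphate, against 37 in Col-0 low phosphate and 17 in Col-0 high phosphate. It was 3.39-fold lower in med16-2 at low phosphate (1.63 to 8.83) and 10.2-fold lower at high phosphate (2.95 to 111).

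GSTU17 (AT1G10370), a tau enzyme tied to light signalling and drought tolerance, had 12 counts (0.978 CPM) in med16-2 low phosphate and 21 counts (1.46 CPM) in med16-2 high phosphate, against 136 counts (8.52 CPM) in Col-0 low phosphate and 222 counts (22.5 CPM) in Col-0 high phosphate. It was lower in med16-2 by 8.39-fold at low phosphate (4.83 to 17.3) and 15.1-fold at high phosphate (9.86 to 25.5), and lower at low phosphate in Col-0 by 2.64-fold (2.13 to 3.30). GSTU18 (AT1G10360), which overlaps GSTU17 in the annotation and is 74.9% identical to it in protein, had 8 counts in med16-2 low phosphate and 13 in med16-2 high phosphate, against 33 in Col-0 low phosphate and 36 in Col-0 high phosphate. It was 3.03-fold lower in med16-2 at low phosphate (1.44 to 7.94) and 3.95-fold lower at high phosphate (2.10 to 8.32). Both genes lie on the minus strand, and where they overlap their reads cannot be told apart.

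GSTF12 (AT5G17220), the carrier of anthocyanins and proanthocyanidin precursors known as TRANSPARENT TESTA 19, had 1 count in med16-2 low phosphate and 2 in med16-2 high phosphate, against 17 in Col-0 low phosphate and 32 in Col-0 high phosphate. Both libraries of med16-2 thus lay at or below 3 counts. The ratio in med16-2 was 8.96-fold lower at low phosphate (2.05 to 546) and 19.0-fold lower at high phosphate (5.97 to 201), and in Col-0 it was 3.01-fold lower at low than at high phosphate (1.64 to 5.86). The shoot marker RBCS1A, the small subunit of Rubisco, had 1 count in med16-2 low phosphate and 0 in med16-2 high phosphate, against 65 in Col-0 low phosphate and 108 in Col-0 high phosphate. The antenna gene LHB1B2, another shoot marker, had 4.89 CPM in med16-2 low phosphate and 1.88 CPM in med16-2 high phosphate, against 83.1 CPM in Col-0 low phosphate and 77.2 CPM in Col-0 high phosphate. The Col-0 libraries were 1.08-fold apart in LHB1B2 (0.983 to 1.18), the single shoot marker not lower in Col-0 low phosphate. Its log2 ratio of low over high phosphate was 0.1, against a median of -0.78 for the 4 shoot markers. RBCS1A was called lower at low phosphate in Col-0, at -1.42. The shoot markers RCA and LHCB1.3 were also lower there, short of a call. The part of shoot tissue in the values of GSTF12 and GSTU17 was not tested.

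Measured members that did not pass any comparison included most of the highly expressed tau genes, among them GSTU13 (AT1G27130), which acts in the indole glucosinolate pathway of defence. GSTU13 had 74.1 CPM in med16-2 low phosphate and 67.5 CPM in med16-2 high phosphate, against 84.4 CPM in Col-0 low phosphate and 77.8 CPM in Col-0 high phosphate. GSTU22 had the highest genotype ratios among the members without a call, with 72.6 CPM in med16-2 low phosphate and 127 CPM in med16-2 high phosphate, against 39.7 CPM in Col-0 low phosphate and 74.3 CPM in Col-0 high phosphate. GSTU22 was 1.83-fold higher in med16-2 at low phosphate and 1.71-fold higher at high phosphate. GSTU6 fell just short of the rule at low phosphate, at 1.97-fold lower in med16-2.

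Position was not used to choose the members. In the TAIR10.1 annotation 29 of the 41 lie in 9 runs in which neighbours are at most 20 kb apart, and 12 stand alone. The run of 4 phi genes on chromosome 1 (chr1:658578-666471) holds GSTF7, GSTF6, GSTF5 and GSTF4. GSTF6 and GSTF7 had the calls given above, GSTF4 had 50 counts in med16-2 low phosphate and 51 in med16-2 high phosphate, against 55 in Col-0 low phosphate and 31 in Col-0 high phosphate, and GSTF5 had 1 count in all. The run of 7 tau genes on chromosome 2 (chr2:12617936-12632538) holds GSTU7 to GSTU1, of which GSTU3, GSTU4 and GSTU5 were lower in med16-2 at low phosphate and the other 4 were not called. In the run of GSTU12 and GSTU11 on chromosome 1 (chr1:26334250-26338818) both were higher at low phosphate in Col-0 and lower in med16-2 at low phosphate. The run of 5 tau genes (chr1:29467412-29488007) held GSTU20, called for phosphate in Col-0, beside the abundant GSTU19 (AT1G78380), which was not. Within a run, some neighbours shared their calls and others did not.

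The 250 bases before the annotated start are printed for 3 of the 6 members called higher at low phosphate in Col-0, from RefSeq TAIR10.1, minus strand, 5′ to 3′. All 3 windows hold a motif marked below, so they do not stand for the 6. Capitals in the first 2 mark TTGAC on either strand, the core of the W box bound by WRKY factors. The windows are chr1:659981-660230 for GSTF7 and chr1:26335631-26335880 for GSTU12, and neither overlaps an annotated locus.
GSTF7: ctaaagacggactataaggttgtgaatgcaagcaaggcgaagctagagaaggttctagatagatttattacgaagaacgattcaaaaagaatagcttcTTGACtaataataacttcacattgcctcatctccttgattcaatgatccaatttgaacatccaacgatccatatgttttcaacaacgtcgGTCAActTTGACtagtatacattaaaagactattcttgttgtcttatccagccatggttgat
GSTU12: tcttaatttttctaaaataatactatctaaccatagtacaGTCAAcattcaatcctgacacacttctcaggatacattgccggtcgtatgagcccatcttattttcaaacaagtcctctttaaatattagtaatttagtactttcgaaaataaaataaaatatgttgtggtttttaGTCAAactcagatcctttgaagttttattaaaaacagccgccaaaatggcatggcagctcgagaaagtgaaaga
In the window of GSTU11 (chr1:26338819-26339068) the capitals mark GNATATNC, the site bound by the phosphate starvation regulator PHR1. This window also holds TTGAC, as the windows of GSTF7 and GSTU12 do, but there it is left in lower case.
GSTU11: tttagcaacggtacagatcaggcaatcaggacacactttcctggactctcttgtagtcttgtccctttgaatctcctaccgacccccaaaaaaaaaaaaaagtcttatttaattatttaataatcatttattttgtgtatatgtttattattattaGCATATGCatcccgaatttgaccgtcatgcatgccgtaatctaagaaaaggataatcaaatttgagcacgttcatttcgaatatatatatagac
Searched on both strands, TTGAC occurred in 24 of 41 member windows (58.5%), beside 44.9% of 27443 windows of protein-coding genes. Among the members called higher at low phosphate in Col-0 and not printed, GSTF6 and GSTU20 had TTGAC and GSTF11 did not. TGACG, the core of the sites bound by TGA factors, occurred in 14 of 41 (34.1%), beside 18.6%, and it can overlap TTGAC in the letters TTGACG. GNATATNC occurred in 1 of 41 (2.44%), which was GSTU11, beside 5.46%. These matches describe letters in a window and were not tested against the values.

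The calls in this and the following gene lists are to be read beside the shares over all loci. For low over high phosphate these were 2.26% higher and 1.03% lower in med16-2, and 3.24% and 1.49% in Col-0. For med16-2 over Col-0 they were 1.04% higher and 6.14% lower at low phosphate, and 0.712% and 6.34% at high phosphate. The aliphatic glucosinolate list, the pathway of GSTF11 and GSTU20, had 12 of 15 genes measured. At low relative to high phosphate, 1 of the 12 was higher in med16-2 and 8 were higher in Col-0, none was lower in either, and the medians were 0.23 in med16-2 and 1.46 in Col-0. In med16-2 relative to Col-0, 8 were lower at low phosphate and 3 were lower at high phosphate, with medians of -1.45 and -0.34. BCAT4, the aminotransferase of the first step of methionine chain elongation, had 7 counts in med16-2 low phosphate and 2 in med16-2 high phosphate, against 253 in Col-0 low phosphate and 9 in Col-0 high phosphate. MAM1, the condensing enzyme of chain elongation, had 7 counts in med16-2 low phosphate and 5 in med16-2 high phosphate, against 138 in Col-0 low phosphate and 7 in Col-0 high phosphate.

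Both followed GSTF11 in being high in Col-0 low phosphate. Like GSTF11, they were under 1 CPM in every other library, so the filter itself favoured that difference. The phosphate log2 ratio in med16-2 minus that in Col-0 was called lower for 6 of the 12 measured genes of the list and higher for 0, with a median of -1.19. Over all loci these shares were 2.16% and 2.3%. MAM1 was among the 6, whereas BCAT4, like GSTF11, was not. CYP83A1, the cytochrome P450 that oxidises the aldoximes just before the glutathione step, had 44 counts in med16-2 low phosphate and 12 in med16-2 high phosphate, against 418 in Col-0 low phosphate and 31 in Col-0 high phosphate. It was the 1 gene of the list called higher at low phosphate in med16-2, 4.18-fold (2.23 to 8.95), and it was 8.20-fold higher in Col-0 (5.77 to 12.4). Its difference of phosphate ratios was not called. MYB28, the main transcriptional activator of the pathway, had 16.1 CPM in med16-2 low phosphate and 8.75 CPM in med16-2 high phosphate, against 24.2 CPM in Col-0 low phosphate and 12.2 CPM in Col-0 high phosphate, and met no rule.

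**Figure D5:**
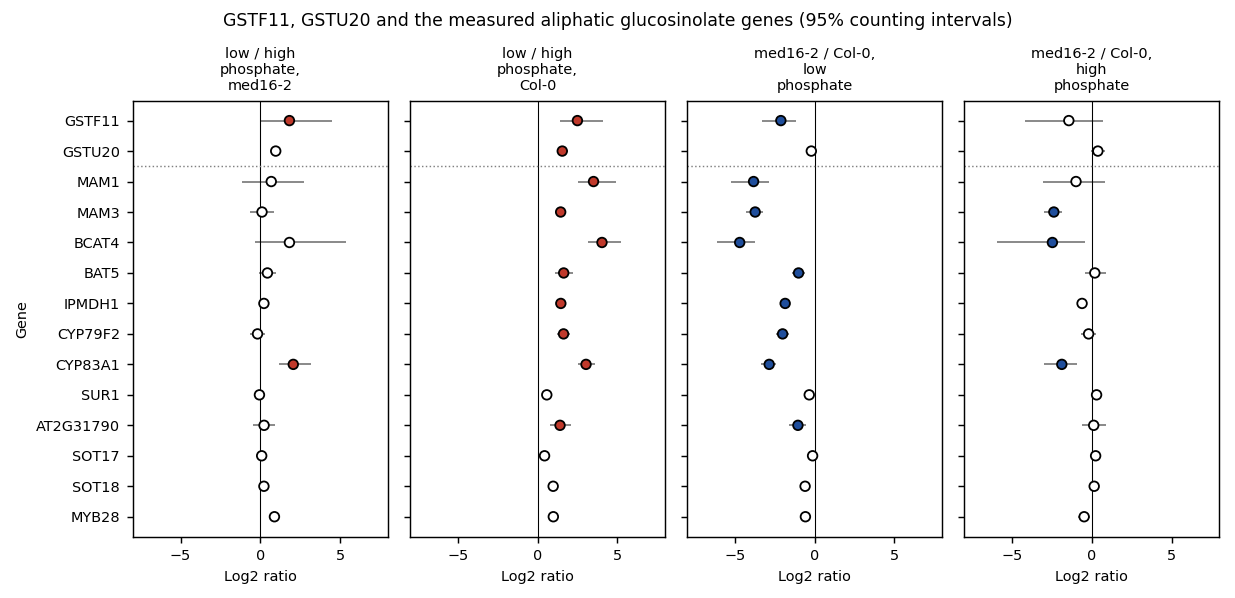
Log2 ratios of GSTF11, GSTU20 and the 12 measured aliphatic glucosinolate genes in the 4 comparisons, with 95% counting intervals (red higher, blue lower, white no call). The 8 called genes sit right of 0 for phosphate in Col-0 and left of 0 for genotype at low phosphate, as GSTF11 does, whereas GSTU20 lies near 0 for genotype at low phosphate at -0.21.

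The indole glucosinolate list, the pathway of GSTU13, had all 7 genes measured and 0 called for phosphate in either genotype. MYB122 and CYP81F2 were lower in med16-2 at high phosphate and no gene of the list was called at low phosphate. In the camalexin list, the pathway of GSTF6, 4 of 6 genes were measured. PAD3, which makes camalexin in the last step, had 28 counts in med16-2 low phosphate and 38 in med16-2 high phosphate, against 107 in Col-0 low phosphate and 25 in Col-0 high phosphate. It was 2.60-fold higher at low phosphate in Col-0 (1.70 to 4.26) and 2.90-fold lower in med16-2 at low phosphate (1.92 to 4.62), and it was the single gene of the list with a call. CYP71A13, which makes the indole-3-acetonitrile that GSTF6 uses, had 0 counts in all 4 libraries. CYP71A12, also of this list and under the filter, had 3 counts in med16-2 low phosphate and 2 in med16-2 high phosphate, against 15 in Col-0 low phosphate and 5 in Col-0 high phosphate.

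In the anthocyanin list, the pathway of GSTF12, 5 of 13 genes were measured. TT7, the flavonoid 3′-hydroxylase, had 7 counts in med16-2 low phosphate and 11 in med16-2 high phosphate, against 76 in Col-0 low phosphate and 212 in Col-0 high phosphate. It was lower in med16-2 by 7.84-fold at low phosphate (3.86 to 21.4) and 27.0-fold at high phosphate (15.4 to 57.3), and its libraries stood in the same order as those of GSTF12. Within med16-2 that order rests on 7 against 11 counts for TT7 and on 1 against 2 for GSTF12. Among the genes of the list not measured, DFR and LDOX had at most 1 count in any library. UGT78D2, a flavonoid glucosyltransferase, was 4.29-fold lower in med16-2 at high phosphate (3.74 to 4.94) and 2.63-fold lower at low phosphate in Col-0 (2.35 to 2.94). The measured members of the list had medians of 0.02 and 0.00 in the genotype comparisons at low and high phosphate.

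The supply of glutathione and the export of conjugates were measured in full. Of 14 genes that make, move or break down glutathione, 1 was higher at low phosphate in med16-2 and 1 was lower in Col-0, and GSH1, the enzyme that commits cysteine to glutathione, had 531 CPM in med16-2 low phosphate and 451 CPM in med16-2 high phosphate, against 516 CPM in Col-0 low phosphate and 423 CPM in Col-0 high phosphate. The gene lower in Col-0 was GGCT2;1, which degrades cytosolic glutathione, with 13 counts in med16-2 low phosphate and 8 in med16-2 high phosphate, against 53 in Col-0 low phosphate and 82 in Col-0 high phosphate. It was also lower in med16-2 in both genotype comparisons, by 3.04-fold at low phosphate (1.68 to 6.26) and 14.2-fold at high phosphate (7.26 to 35.9). The gene higher in med16-2 was GGT2, a gamma-glutamyl transpeptidase, with 32 counts in med16-2 low phosphate, against 18 in med16-2 high phosphate. None of the 5 transporters of the ABCC type, among them ABCC1 and ABCC2, was called in any comparison.

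The 12 genes of the other glutathione transferase classes (zeta, theta, lambda, the dehydroascorbate reductases and AT1G77290) were all measured. For phosphate 0 were called in med16-2, and in Col-0 2 were higher, GSTL3 and DHAR1, and 1 was lower, GSTZ2. DHAR1, which regenerates ascorbate with glutathione, had 17.4 CPM in med16-2 low phosphate and 11.2 CPM in med16-2 high phosphate, against 63.0 CPM in Col-0 low phosphate and 28.4 CPM in Col-0 high phosphate. It was 3.62-fold lower in med16-2 at low phosphate (3.12 to 4.22) and 2.54-fold lower at high phosphate (2.09 to 3.10). GSTL1 was also lower in med16-2 at low phosphate, by 2.22-fold (1.05 to 5.57) on 9 against 27 counts, and GSTZ2 at high phosphate, by 2.17-fold (1.47 to 3.25). At low phosphate 16.7% of the 12 genes were called lower, beside 36.1% of the measured phi and tau members. At high phosphate the share was 16.7% in both. The medians of these 12 genes in the genotype comparisons were -0.11 at low and -0.08 at high phosphate, beside -0.43 and -0.16 for the phi and tau members.

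Genes that respond to xenobiotics together with tau enzymes were measured for 11 of 13. Their medians for phosphate were -0.63 in med16-2 and -0.32 in Col-0, with 1 gene lower in each, CYP81D8 in med16-2 and UGT75B1 in Col-0. CYP81D8, a cytochrome P450 induced by many chemicals, had 23 counts in med16-2 low phosphate and 55 in med16-2 high phosphate, against 108 in Col-0 low phosphate and 54 in Col-0 high phosphate. Between genotypes the medians were 0.10 at low phosphate and 0.33 at high phosphate, and the calls, both at low phosphate, were UGT75B1, 3.77-fold higher in med16-2 (1.78 to 9.44), and CYP81D8, 3.55-fold lower (2.28 to 5.93). UGT75B1 had 27 counts in med16-2 low phosphate and 53 in med16-2 high phosphate, against 9 in Col-0 low phosphate and 21 in Col-0 high phosphate. It passed the filter on its mean although Col-0 low phosphate was at 0.564 CPM, so the filter favoured a difference in it. Among the 12 regulators of detoxification genes, which include the TGA factors and SCL14, the single call was TGA7, with 29.9 CPM in med16-2 low phosphate, against 61.2 CPM in Col-0 low phosphate.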

How the data were processed

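Raw read counts for each locus, not normalized, were deposited by the authors for 4 mRNA libraries that do not keep strand and were made from 5 µg of total RNA, per the labels' protocols. Trimmomatic 0.35, TopHat2 2.0.9 and HTSeq 0.6.0 with TAIR10 were used per the submitters' processing notes. Neither settings nor the release of the annotation is given in the sources used here. Without strand, overlapping loci cannot be told apart. This concerns 12 members, of which GSTF2, GSTF11, GSTF12, GSTU10, GSTU17 and GSTU18 were called in a comparison or in the difference.

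Lines that name no gene were kept out of library sizes. They took 42.1% of listed reads in med16-2 low phosphate, 10.1% in med16-2 high phosphate, 9.89% in Col-0 low phosphate and 12.5% in Col-0 high phosphate. Libraries were scaled with TMM in edgeR 4.0.16 (R 4.3.3), and the comparison took in the 18692 loci that averaged 1 CPM or more over the 4 libraries. The level that 0 counts still permit, taken as 3 counts, was 0.245 CPM in med16-2 low phosphate, 0.208 CPM in med16-2 high phosphate, 0.188 CPM in Col-0 low phosphate and 0.305 CPM in Col-0 high phosphate. Log2 ratios used counts plus 0.5, exact Clopper-Pearson intervals at 95% and the 2-fold size rule. The interval of the difference of phosphate ratios was a normal one, its variance being 1/(count + 0.5) summed over the 4 counts. Intervals and floors cover counting error alone, and reads without molecular identifiers are not independent molecules. The rule was first run on simulated counts with known folds at the depths of these libraries. Those counts were drawn with the counting error that the intervals assume and with no differences between plants. They therefore cannot show how the calls would hold between plants.

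Names, exons, overlaps and sequences came from RefSeq TAIR10.1, matched by identifier for 32835 loci. Identity was taken from global alignments in Biopython 1.88. The members and gene lists were chosen with earlier results of these data known. Named genes were every member with a call, the 6 highest per kilobase, members with a known role, and the leading called genes of each list. GSTF3, GSTF4, GSTF5, GSTF14, GSTU6, GSTU15, GSTU21, GSTU22, GSTU24, GSTU28, GSH1, MYB28, CYP71A12, CYP71A13, DFR, LDOX, ABCC1 and ABCC2 were also named, after their values had been seen. Scaling with DESeq2 1.42.0 size factors, filters, pseudocounts and fold limits were varied.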

Additional observations from a re-analysis of the deposited data

Results flagged for a closer look

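For 3 members the phosphate ratio had opposite signs in the 2 genotypes, both 95% counting intervals excluded equality and the difference of the ratios was at least 1 on the log2 scale. Each group had 1 library, so that the difference was not tested between plants. GSTF7 was lower at low phosphate in med16-2 and higher in Col-0, and its log2 ratio in med16-2 minus that in Col-0 was -3.89. GSTU11 did the same with a difference of -2.40, and it met the size rule in both genotypes. GSTF2 did the same with a difference of -1.73. GSTU6, GSTU24 and GSTU28 also had opposite signs with both intervals excluding equality, at smaller differences of -0.49, -0.65 and 0.77. GSTU10 and GSTF13 had opposite signs and a difference past 1, but their intervals in med16-2 included equality, at -0.31 (-0.78 to 0.16) for GSTU10 and 0.14 (-0.17 to 0.45) for GSTF13.

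Outside the gene counts, 36.6% of the listed reads of med16-2 low phosphate aligned to several places, against 7.18% in med16-2 high phosphate, 6.65% in Col-0 low phosphate and 9.27% in Col-0 high phosphate. Ribosomal RNA and organelle loci took 2.42% of gene counts in med16-2 low phosphate, against 0.333% in med16-2 high phosphate, 1.36% in Col-0 low phosphate and 0.682% in Col-0 high phosphate. The coding sequences of GSTF6 and GSTF7 share runs of up to 116 bases, and the share of their reads in that class was not tested.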

How the results depend on the processing

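No paired analysis was possible because each group has 1 library, and for the same reason no fit without a library was run. Each comparison rests on 2 libraries, and the 95% intervals cover counting error, not differences between plants. Over the alternatives run, 121 values (counts of called members within 1.5 times those reported, and medians within the typical counting error of a member) moved less than these limits, and 20 counts moved more. These limits are wide for the medians. The median for low phosphate in med16-2 changed sign, to 0.02 without members that overlap another locus, against -0.13 reported. The median for low phosphate in Col-0 came to 0.00 with a mean of at least 5 CPM and without members at least 90% identical to another. The median for med16-2 over Col-0 at low phosphate came to -0.23 under each of these 3 restrictions, against -0.43 reported. With a 1.5-fold rule, the difference of phosphate ratios had 2 members higher, low phosphate in med16-2 had 2 higher and 6 lower, low phosphate in Col-0 had 6 lower, and med16-2 had 3 members higher than Col-0 at low phosphate and 4 at high phosphate. Over all loci that rule called 994 higher and 880 lower for the difference (429 and 404 reported), 942 and 475 for low phosphate in med16-2 (422 and 193), 1303 and 779 in Col-0 (606 and 278), 612 and 2219 for genotype at low phosphate (195 and 1147) and 517 and 2295 at high phosphate (133 and 1186). With a mean of at least 5 CPM (27 members), low phosphate in med16-2 had 0 higher and 1 lower, low phosphate in Col-0 had 3 higher, and med16-2 had 7 lower at low phosphate and 3 at high phosphate. In the same order of comparisons, 205 higher and 164 lower, 181 and 71, 255 and 134, 57 and 579, and 33 and 710 loci were called among those passing that filter. They are fewer than the 18692 of the main filter, and their number is not given here. These counts therefore give no share to set beside those of the members. Without members at least 90% identical to another (33 members), 4 members had a lower difference and 0 were higher in med16-2 at high phosphate. Leaving out members that overlap another locus, an alternative added after the data were seen (24 members), left 0 higher at low phosphate in med16-2 and 1 lower in Col-0, and 7 lower in med16-2 at low phosphate and 2 at high phosphate. Total gene counts as library sizes gave 0 higher at low phosphate in med16-2 (GSTF11 lost) and added GSTU6 as lower in med16-2 at low phosphate, at -1.01. Of all loci, those sizes called 408 higher at low phosphate in med16-2 and 1204 lower for genotype at low phosphate. With no filter (41 members), 2 members were higher in med16-2 at high phosphate, GSTF7 and GSTF14, and with a pseudocount of 5 there were 0, at 0.93 for GSTF7. That pseudocount called 64 of all loci higher in med16-2 at high phosphate and 246 lower for the difference. Without the filter, 175 of the loci with any count were called higher in med16-2 at high phosphate. Of the 33602 loci, 9306 had no count. Factors computed from the 3 libraries other than med16-2 low phosphate, also added later, changed no member's call in the 2 comparisons that do not use that library (low over high phosphate in Col-0, and genotype at high phosphate).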
